A study of Mus musculus with 1012 samples.

Results

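Live-seq biopsies of mock-treated RAW cells are samples of cytoplasm drawn out of single living macrophage-like cells with the hollow probe of a fluidic force microscope and turned into cDNA by an enhanced Smart-seq2 protocol. They were the libraries whose labels name Live-seq as the technique, the RAW264.7 G9 line as the cells and no LPS treatment, which gave 10.2% of the single-cell libraries in the series. Of these cells, 8 belonged to batch 6, 20 to batch 7, 63 to batch 8_8 and 12 to batch 9_4. RAW264.7 is an established mouse macrophage-like line, and RAW-G9 is 1 clone of it that carries an mCherry gene under the Tnf promoter and an EGFP fused to the NF-kB subunit Rela. All RAW biopsies and whole RAW cells described here carry both transgenes. A figure legend of the study gives PBS for mock-treated cells, while the labels call them not treated. For cells that were followed or sampled again, the methods describe a first biopsy before LPS and name no PBS. Cells of the LPS biopsies received the bacterial product lipopolysaccharide for 4 to 5 h. The groups set beside the mock biopsies were 39 biopsies of LPS-treated RAW-G9 cells, 44 biopsies of IBA cells and 61 biopsies of ASPC_Pre cells, besides whole mock-treated RAW-G9 cells that were detached with trypsin and sorted, of which 16 belonged to batch 8_8. IBA is an immortalised brown preadipocyte line from young male C57BL6/J mice, and ASPC_Pre are untreated primary adipose stem and progenitor cells from the subcutaneous fat of female C57BL/6J mice aged 7 to 10 weeks. For repeated sampling the study gave some of these progenitors a lentiviral GFP reporter with a barcode. For 5 of the mock biopsies the labels name a second biopsy of the same cell in the LPS group, so that those cells stand in both groups, although in 1 of these pairs both biopsies carry the same order number.

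Macrophages are phagocytes that depend on signalling by the Csf1 receptor, read out microbial products through Toll-like and C-type lectin receptors and degrade what they engulf in lysosomes filled with cathepsins and lysozyme. LPS, sensed by Tlr4 with its co-receptor Cd14, frees NF-kB from its inhibitor Nfkbia and switches on cytokines and chemokines such as Tnf, Ccl3 and Ccl4, and the gene for the inhibitor is itself a target. A resting macrophage keeps most of these response genes low. A biopsy takes part of the cytoplasm and leaves the nucleus behind, so that mature cytoplasmic mRNA is what it is meant to hold.

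The mock biopsies had a median of 389710 counts per cell, from 64500 to 1116946, and up to 9066 genes per cell. Genes seen in negative controls (20) and those of ribosomal proteins (91) do not enter the numbers of genes or any level below. The negative-control genes took a median of 20.7% of a cell's counts, from 1.02% to 89.2%. Levels are in CPM, that is, scaled to 1000000 remaining counts, after summing over the cells of a batch, and stand in the order batch 6, 7, 8_8 and 9_4. CPM is not divided by gene length, so levels are compared between samples and not between genes. Batch 6 stood apart: across genes its summed profile had correlations of 0.673 to 0.701 with the other 3, which had 0.863 to 0.921 among themselves. The gap was wide for ER and lysosomal genes. Hspa5, the main chaperone of the endoplasmic reticulum (ER), was at 7.03 CPM in batch 6 and at 1710, 2710 and 3220 CPM elsewhere. The 14 ER chaperone genes together took 0.109% of the counts of batch 6 and 0.844% to 1.68% of the others, and the 20 lysosomal genes took 0.137% against 1.18% to 1.51%. With 8 cells this batch is also the smallest.

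All 4 marker genes given for these cells were found in every batch. Csf1r, the receptor for the macrophage growth factor Csf1, was at 885.7, 2110, 1660 and 1450 CPM and was counted in 86.4% of the cells, with an exact 95% interval of 78.2% to 92.4%. It was counted in 0 of 44 IBA biopsies, which allows a share of up to 6.82%. ASPC_Pre biopsies were not free of the 4 markers. Together these took 0.00427% of the counts of ASPC_Pre in batch 9_4, against 0.334% in mock biopsies of that batch. Cyth4, an exchange factor for Arf GTPases of blood cells, was at 163.7, 391.1, 486.4 and 555.8 CPM and was counted in 71 cells (68.9%, interval 59.1% to 77.7%). Amy1, an amylase gene, was at 204.6, 772.6, 396.8 and 1230 CPM and was counted in 68 cells (66%, 56% to 75.1%). Amylase genes form a cluster of close copies, so that reads may be split between them. Klhl6, a BTB-Kelch adaptor of a ubiquitin ligase, was at 115.8, 102.4, 133.7 and 100 CPM and yet was counted in only 33 cells (32%, 23.2% to 42%). In whole RAW cells the same 4 genes were counted in 100%, 100%, 98.7% and 93.6% of cells in the order Csf1r, Cyth4, Amy1 and Klhl6. Per cell in batch 8_8, Csf1r ran from 0 to 6300 CPM with a median of 1210 CPM, and whole cells of that batch ran from 590 to 2060 CPM with a median of 1510 CPM. The middle of the distribution was thus similar, while both ends were far wider in biopsies.

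Biopsies of mesenchymal cells were the background for the macrophage markers. Counts were summed per batch and state and RAW_Mock was compared with the mean of IBA and ASPC_Pre by edgeR's quasi-likelihood test with batch as a term, over 11160 genes, with a call at an adjusted p below 0.05 and a log2 fold change beyond 1. It called 1.62% of these genes higher in RAW_Mock and 1.99% lower. Of the 20 macrophage genes, 17 passed the filter, which asks for 2 counts in 15% of the cells of a group. Of these 17, 16 were called higher, and the median of the 17 log2 fold changes was 11.62. A gene almost absent from mesenchymal biopsies can pass only through a RAW group. The share called is therefore not independent of the level in RAW cells. Of the 4 marker genes, which had been drawn from these data, all were called higher. Of the 10 mesenchymal genes tested, 7 were called lower and 0 higher, and these could pass the filter through the mesenchymal groups alone. The batches are the replicates here, and nothing in the labels says that a batch is a separate culture, so that the p-values measure the spread between these sums.

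The 10 rises chosen by the rule were Ncf1, Ncf4, Tyrobp, Fcer1g, Cx3cr1, Btk, Inpp5d, Car2, Amy1 and Cyth4. Ncf1, a cytosolic subunit of the NADPH oxidase that makes superoxide, was at 452.8, 500.98, 582.3 and 441.7 CPM and had no counts in the mesenchymal biopsies, which made it at least 7470-fold higher (adjusted p = 5.26e-04, edgeR). Ncf4, a second cytosolic oxidase subunit, was at 194.4, 195.3, 279.2 and 347.7 CPM and at least 3670-fold higher. Tyrobp, an adaptor that carries an ITAM and passes on signals of myeloid receptors, was at 155.4, 290.7, 353.6 and 441.7 CPM and at least 4740-fold higher. Fcer1g, the common gamma chain of Fc receptors, was at 298.7, 352.3, 590 and 846.3 CPM, against 1 count in all mesenchymal biopsies. In batch 6 these 4 genes, unlike the lysosomal ones, were counted at levels near those of the other batches or at most a few-fold lower. Cx3cr1, the receptor for the chemokine fractalkine, was at 1.92, 525.1, 382.8 and 767.05 CPM and at least 6310-fold higher over all batches, with batch 6 far below the rest. Btk, a tyrosine kinase of B cells and myeloid cells, was at 318.5, 78.6, 191.3 and 306.998 CPM and at least 2580-fold higher. Inpp5d, the phosphatase SHIP1 that dampens receptor signals, was at 395.2, 102.6, 173.9 and 145.2 CPM and at least 2270-fold higher. Car2, carbonic anhydrase 2, was at 3830, 3360, 3910 and 5680 CPM against 0.103 to 0.503 CPM in the mesenchymal sums, a log2 fold change of 13.84 with an SE of 0.50 (adjusted p = 5.69e-07, edgeR). Amy1 had 19207 counts in the mock biopsies against 1 in the mesenchymal ones (log2 fold change 14.67, SE 1.15, adjusted p = 2.75e-04, edgeR), and Cyth4 had 14670 against 1 (14.15, SE 2.14). The bounds use 3 counts over the group as the floor.

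Other macrophage genes stood with them. Lyz2, the lysozyme of phagocytes, was at 509.1, 6870, 4680 and 5830 CPM and higher by 11.62 on the log2 scale (SE 1.38). Spi1, which encodes the myeloid transcription factor PU.1, was at 370, 334.5, 321.6 and 444.6 CPM, a log2 fold change of 11.45 (SE 1.11), and was among the steadiest of the list between batches. Cybb, the membrane subunit of the phagocyte oxidase, was at 384.99, 1110, 790 and 856.999 CPM (13.06, SE 0.70). Lcp1, the actin-bundling protein of blood cells, was at 1820, 1920, 1620 and 2100 CPM (12.92, SE 0.82). Laptm5, a lysosomal membrane protein of blood cells, was at 409.3, 1070, 1190 and 1080 CPM (13.13, SE 1.09). Emilin2, a matrix glycoprotein, was the exception of the list: it was at 1.28, 271.9, 281.05 and 220 CPM in mock biopsies and at 51.1 to 362.7 CPM in the mesenchymal sums, with a log2 fold change of 0.26 (SE 1.08, adjusted p = 0.976, edgeR). Several markers used for tissue macrophages were low or missing. Adgre1 (F4/80) was counted in 1 of the cells, Fcgr3 in 3 and Itgam in 5. Cd36, Marco, Clec7a and Tlr8 were counted in 0 of them, which allows a share of up to 2.91% and, like every interval here, covers counting error only. Of the B cell genes, Cd79a, Cd79b and Pax5 had no count. Ebf1 was at 1.12 to 3.20 CPM (log2 fold change -6.89, SE 1.19, called lower), and Ighm, the heavy chain of IgM, was at 847.4, 87.6, 220 and 22.2 CPM in 25 cells (24.3%). Among whole RAW cells 72.6% held Ighm. Of 10 T and NK cell genes, 7 were among the counted features, and these summed to at most 0.00064% of counts. The 10 neutrophil genes summed to at most 0.000037%.

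The 10 falls ranged from matrix proteins to actin regulators and transcription factors. Fbln2 (fibulin 2), Fn1 (fibronectin) and Col6a1 (a chain of collagen VI) had no count in any mock biopsy and were at least 18300-fold, 16600-fold and 8580-fold lower. The transcription factor Prrx1 and the actin-bundling Fscn1 also had none and were at least 4660-fold and 4510-fold lower. Cttn, the cortical actin regulator cortactin, had none either and was at least 5740-fold lower. Cyp1b1, a cytochrome P450, was at least 3490-fold lower and the immediate early factor Egr1 at least 2250-fold lower. Lox, the enzyme that crosslinks collagen, had 2 counts in the mock biopsies against 151689, and Thbs1, the matrix protein thrombospondin 1, had 1 against 70680. Vim, the intermediate filament of mesenchymal cells and macrophages, was present but lower, at 646.6, 463.6, 513.6 and 343.7 CPM against 5830 to 11100 CPM (log2 fold change -4.56, SE 0.65, adjusted p = 0.00387, edgeR). The number of calls hung on the batches: against 3.61% of genes with all batches, 0.108% were called without batch 8_8, which holds 63 of the cells, 0.403% without batch 9_4, 1.51% without batch 7 and 4.93% without batch 6. Of 29 named genes called with all batches, 23 lost the call without batch 8_8, 15 without batch 9_4, 7 without batch 7 and 0 without batch 6. All 29 kept their direction in these fits, and Emilin2, which was not called, was at -0.19 without batch 8_8.

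Sequences before the start sites of a few of these genes are shown because the letters GAGGAA, the core read by PU.1, were commoner before genes called higher. RefSeq windows on GRCm38.p6 run from 250 bases before to 50 bases after the start of a gene, and 69.6% of the genes called higher and 74.8% of those called lower had one. GAGGAA was searched on both strands and was found in 51.6% of the windows of genes called higher, in 30.1% of those called lower, in 26.2% of the windows of all genes tested and in 28.3% of all windows in the table. Of the 10 rises, 7 had a window and 4 of these held the letters, namely Amy1, Btk, Cyth4 and Inpp5d. Capitals mark them, on either strand, in 3 windows, at chrX:134583091-134583390 (minus strand), chr15:78596797-78597096 (plus strand) and chr1:87620062-87620361 (plus strand). Positions of the matches from the start site were 9 for Btk, 28 for Cyth4, and -20 and 3 for Inpp5d.
Btk: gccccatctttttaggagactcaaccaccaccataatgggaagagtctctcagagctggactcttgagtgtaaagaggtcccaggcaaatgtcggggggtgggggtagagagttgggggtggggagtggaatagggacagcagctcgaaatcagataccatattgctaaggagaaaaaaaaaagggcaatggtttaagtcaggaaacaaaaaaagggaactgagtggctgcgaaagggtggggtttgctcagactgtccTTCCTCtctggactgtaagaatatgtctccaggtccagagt
Cyth4: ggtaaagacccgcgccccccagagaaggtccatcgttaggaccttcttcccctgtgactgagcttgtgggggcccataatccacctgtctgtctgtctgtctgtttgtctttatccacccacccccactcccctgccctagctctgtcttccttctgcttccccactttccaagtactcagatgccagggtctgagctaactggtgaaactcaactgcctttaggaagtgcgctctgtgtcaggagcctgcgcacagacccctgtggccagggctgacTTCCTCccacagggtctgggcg
Inpp5d: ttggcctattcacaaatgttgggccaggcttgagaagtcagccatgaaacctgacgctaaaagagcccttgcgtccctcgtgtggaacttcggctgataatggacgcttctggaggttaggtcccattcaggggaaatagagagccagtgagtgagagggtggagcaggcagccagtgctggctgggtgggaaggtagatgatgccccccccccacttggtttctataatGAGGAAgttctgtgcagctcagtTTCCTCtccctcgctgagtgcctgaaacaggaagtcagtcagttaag
The windows of Cx3cr1, Fcer1g and Ncf1 did not hold these letters. A match is a description of the sequence and was not tested for binding.

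Lists of iron, cytoskeletal, translation, mitochondrial and glycolytic genes each took 1.16% to 4.67% of the counts of a batch. By mean CPM over the 4 batches the 20 leading genes included Fth1, the heavy chain of ferritin, at 16100, 7590, 14700 and 14400 CPM. Fth1 was counted in every cell. Actb, beta-actin, was at 15100, 4470, 10000 and 15100 CPM, and Eef1a1, the elongation factor that brings tRNA to the ribosome, at 16500, 11500, 7670 and 7200 CPM. Eef2, Eif5a, Npm1 and Ncl, of translation and ribosome assembly, and Ldha, Aldoa and Gapdh, of glycolysis, were also among the 20. So were mt-Cytb, mt-Nd1, mt-Co1 and mt-Nd5 of the mitochondrial genome, the chaperone Hsp90ab1, the transcription factor Mycn, Lyz2 and Car2. The summed levels of mt-Nd1 were 5880, 5650, 6310 and 6150 CPM. The cells behind a sum were uneven: in batch 6, over 8 cells, the median share of mitochondrial mRNAs was 0.395% and the highest 35.7%. The remaining 2 of the 20 were predicted genes whose counts came unevenly. Gm26917 was at 228.9, 26400, 14600 and 4790 CPM and reached 201000 CPM in 1 cell of batch 8_8 around a median of 322.6 CPM. Gm10800 was at 40800, 1550, 282.8 and 0 CPM, so that its place rested on batch 6. Of the mitochondrial mRNAs, 7 had counts in every batch, while mt-Co2, mt-Atp6 and mt-Nd3 were listed at 0. Some mitochondrial genes were among the negative-control genes left out. Of the remaining counts, the mitochondrial share of a batch's median cell was 0.397% in batch 6 and up to 2.36% elsewhere. The remaining mitochondrial mRNAs summed over cells took 2.63% in batch 6 and 2.35% to 2.44% elsewhere.

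The lysosome was well sampled outside batch 6. Ctsb, the cysteine protease cathepsin B, was at 58.8, 2570, 3350 and 4360 CPM and was counted in 91 cells (88.3%). Ctsd, the aspartic protease cathepsin D, was at 124.1, 777.3, 975.1 and 1490 CPM. Gusb, the lysosomal beta-glucuronidase, was at 3.84, 550.7, 574.4 and 1010.1 CPM. Iron genes were led by ferritin, with Ftl1, the light chain, at 1880, 1200, 2170 and 2350 CPM and counted in every cell. Hmox1, which breaks down haem, was at 85.7, 151.9, 928.7 and 343.02 CPM, and Tfrc, the transferrin receptor, at 204.01, 164.1, 569.2 and 850 CPM. The pattern receptors were sparse apart from Cd14, at 546.8, 960, 1140 and 1660 CPM in 78 cells, and Tlr2, which senses bacterial lipopeptides, at 1080, 158.5, 293.4 and 416.2 CPM in 56 cells. Tlr4, the LPS receptor, was at 1.28, 286.6, 49.7 and 32 CPM and was counted in 27 cells. The 42 S phase genes took 0.387%, 0.795%, 0.790% and 0.850% of the counts and the 52 G2M genes 0.966%, 1.12%, 0.998% and 1.06%.

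**Figure D1:**
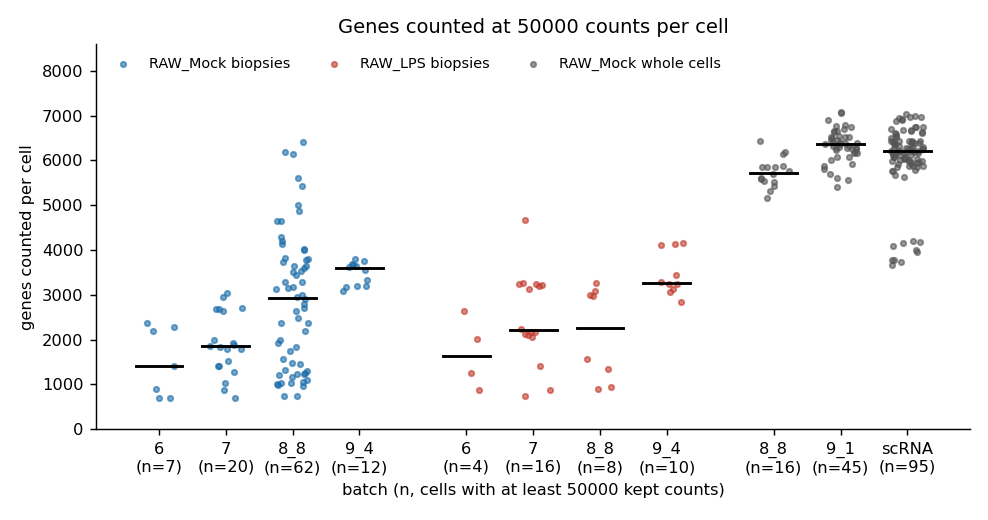
Genes counted per cell thinned to 50000 counts (y axis, number of genes) in each batch for mock biopsies, LPS biopsies and whole mock cells. Genes of negative controls and ribosomal proteins are left out, as are cells with fewer kept counts. Each cell is 1 point, with a bar at the median. At this depth, medians of the mock biopsies ran from 1408 in batch 6 to 3594.5 in batch 9_4. The batch medians of whole cells ran from 5728 to 6368.

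A biopsy held fewer genes than a whole cell. The batch medians of genes per cell were 1533.5, 2347, 3398 and 4410.5 in mock biopsies, a mean of 2920 ± 1250 (SD, n = 4), and 8050 ± 815.8 (SD, n = 3) in whole cells. The groups did not overlap, and the exact two-sided permutation test over batch medians gave p = 0.0571, the smallest that 4 against 3 allow (0.228 adjusted over the 8 tests of this family). Within batch 8_8, where biopsies and whole cells share a batch, cells thinned to 50000 counts had a median of 2937.5 genes (at most 6405) in 62 biopsies and of 5728 genes (5170 to 6433) in 16 whole cells. The 100 leading genes took 44.7%, 30.2%, 27.1% and 24.1% of the counts of the median biopsy of a batch, a mean of 31.5% ± 9.15 (SD, n = 4), and 21.1% ± 0.742 of those of a whole cell (n = 3, p = 0.0571, the same exact test). The mitochondrial share of the remaining counts was 1.77% ± 0.925 against 2.47% ± 0.655 (p = 0.4, exact permutation test). The ribosomal protein share was 4.33% ± 1.70 against 3.62% ± 0.857 (p = 0.8, exact permutation test). Neither differed beyond the spread of the batches. Over all counts, negative-control genes included, the median mitochondrial share was 2.66%, 6.43%, 6.86% and 8.97% in mock biopsies. In whole cells it was 5.06% (batch 8_8), 9.41% and 9.19%. The LPS biopsies overlapped the mock biopsies in all 4 measures, with exact permutation p-values of 0.514 to 0.886. Their genes per cell averaged 2820 ± 1090 (SD, n = 4), 106.1 fewer than in mock biopsies, and without batch 8_8 the difference had the other sign. Less RNA in a sample and fewer genes reaching the library cannot be told apart here.

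**Figure D2:**
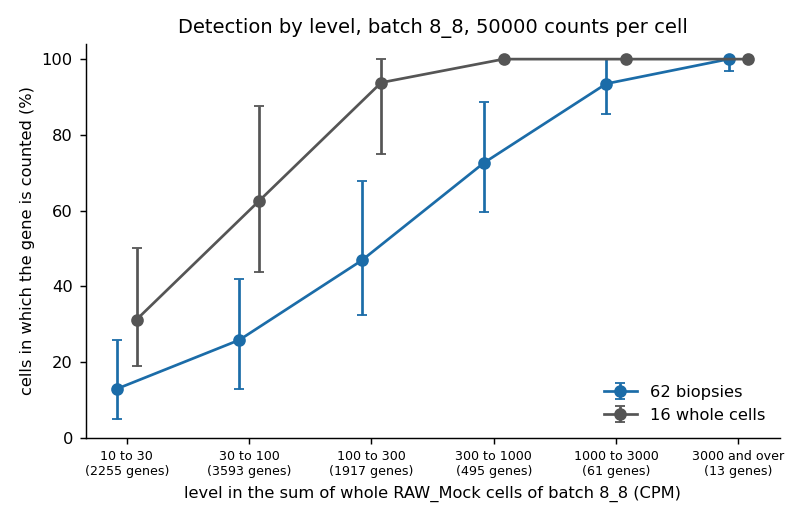
Percent of cells in which a gene was counted (y axis, median over genes) by its level in whole cells of batch 8_8 (x axis, CPM classes), at 50000 counts per cell, for 62 biopsies and 16 whole cells, with bars from the 10th to the 90th percentile of genes. Genes at 100 to 300 CPM were counted in 46.8% of biopsies and 93.8% of whole cells, and the curves met only in the highest class.

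Which genes a biopsy caught depended on their level in the whole cell. In batch 8_8, at 50000 counts per cell, the 2255 genes at 10 to 30 CPM in whole cells were counted in a median of 12.9% of biopsies and 31.2% of whole cells. The 1917 genes at 100 to 300 CPM were counted in 46.8% and 93.8%. The 61 genes at 1000 to 3000 CPM were counted in 93.5% and 100%, and the 13 genes above that in 100% of both. Of the genes counted in at least 50% of the thinned biopsies, which numbered 1634, 1630 were also counted in 50% of the whole cells, where 5846 genes reached that share. Over all mock biopsies without thinning, 17360 genes were counted at least once, 1851 in at least 50% of the cells and 14 in every cell. A small group ran against the rule: 66 genes were counted in biopsies more often than in whole cells by 10 percentage points or more, against 8508 less often. The following were picked from it after their values were seen. Plaur, the urokinase receptor, was counted in 33.9% of biopsies and 12.5% of whole cells, at 73.1 against 6.70 CPM. Nr4a1, an immediate early nuclear receptor, was counted in 19.4% of biopsies and was at 121.5 CPM against 0.231 CPM in whole cells, yet had no counts in mock biopsies of the other 3 batches. Gm10800 was counted in 50% against 25%.

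No gene was called between mock biopsies and whole mock cells. The comparison used 4 sums of biopsies and 3 of whole cells and 10058 genes, and edgeR's quasi-likelihood test called 0 (0.0%), while 1.91% of genes had an unadjusted p below 0.05 and the lowest adjusted p was 0.922. DESeq2 and the newer edgeR fit also called 0. In simulated data with this design and 1 dispersion (1.09) for all genes, 13% of genes changed 16-fold and 63% of those changed 64-fold were recovered. The changed genes were drawn from highly counted ones. Spread differs between genes in the data, so these shares do not settle what was detectable there. A lack of calls does not show equal levels. Sums that did not overlap were higher in biopsies for 68 genes (0.676% of those tested) and lower for 7.69%. Over these sums, most of which come from different batches, the imbalance followed the level. Of 10 equal classes of genes by mean level, the lowest had a median log2 difference of -0.93 and the highest one of 0.26, with 73% of its genes higher in biopsies. Within batch 8_8 the course was flatter. There the median log2 ratio of biopsies to whole cells was -0.07 for genes at 10 to 30 CPM in whole cells. It was -0.18 at 100 to 300 CPM and 0.06 at 3000 CPM and over. Genes under 10 CPM did not enter these classes.

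Over the batch sums, genes of the abundant cytoplasmic machinery lay on the high side in biopsies, though none passed the test. All 20 cytoskeletal genes had a higher mean in biopsies, with a median log2 difference of 0.54 against -0.09 over all genes, and a range of that median from 0.21 to 0.71 over the alternatives. The number of the 20 on the high side ran from 16 to 20 in them. Actb was at 15100, 4470, 10000 and 15100 CPM in biopsies and at 5760 (batch 8_8), 10200 and 6090 CPM in whole cells, a log2 difference of 0.85 (SE 0.47). Gsn, which severs actin filaments, was at 1280, 440.6, 322.4 and 292.7 CPM against 340.97, 243.3 and 357.99 CPM (1.2, SE 0.64), with batch 6 far above the other sums. Of 16 translation genes 14 were higher (median 0.51), and of 15 glycolytic genes 11 (median 0.60). Within batch 8_8, which holds both kinds, the translation list took 2.51% of counts in biopsies and 2.53% in whole cells. Its share in biopsies was 4.67% in batch 6, 3.27% in batch 7 and 2.33% in batch 9_4. The glycolytic list took 1.88% in biopsies and 1.51% in whole cells of batch 8_8, and the cytoskeletal list 2.44% and 2.01%. These lists hold highly counted genes, and the highest of the 10 classes of all genes also lay at 0.26. Lysosomal and ER chaperone genes did not follow, with 7 of 19 and 2 of 14 higher.

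Nuclear RNAs, like most genes, were caught in fewer biopsies than whole cells. Malat1, a long RNA kept in nuclear speckles, was at 0.64, 1620, 1050 and 783.2 CPM in mock biopsies and at 1420 to 1570 CPM in whole cells, a log2 difference of -0.67 (SE 1.23) that did not pass the test. It was counted in 63 biopsies (61.2%, exact 95% interval 51.1% to 70.6%) and in 100% of whole cells. In batch 8_8 the biopsies ran from 0 to 24800 CPM around a median of 10.5 CPM, while 16 whole cells ran from 22.6 to 3440 CPM around 1460 CPM. Thus a summed level near that of whole cells was made of many biopsies with little and a few with much. Without thinning, Neat1, the scaffold of paraspeckles, was counted in 23.3% of biopsies and 93.6% of whole cells. Kcnq1ot1, an imprinted nuclear RNA, was counted in 17.5% and 94.3%. Pvt1 was at 0, 2.37, 1.55 and 9.85 CPM against 11.3 to 22.3 CPM, sums that did not overlap (log2 difference -2.09, SE 1.44). Of 6 nuclear RNAs tested, 1 was higher in biopsies, with a median of -0.58. Cytoplasmic long non-coding RNAs lay close to them, with 2 of 6 higher and a median of -0.54. At equal depth in batch 8_8, Malat1 was counted in 48.4% of biopsies and 93.8% of whole cells, and genes of its level in whole cells in 93.5% and 100%.

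**Figure D3:**
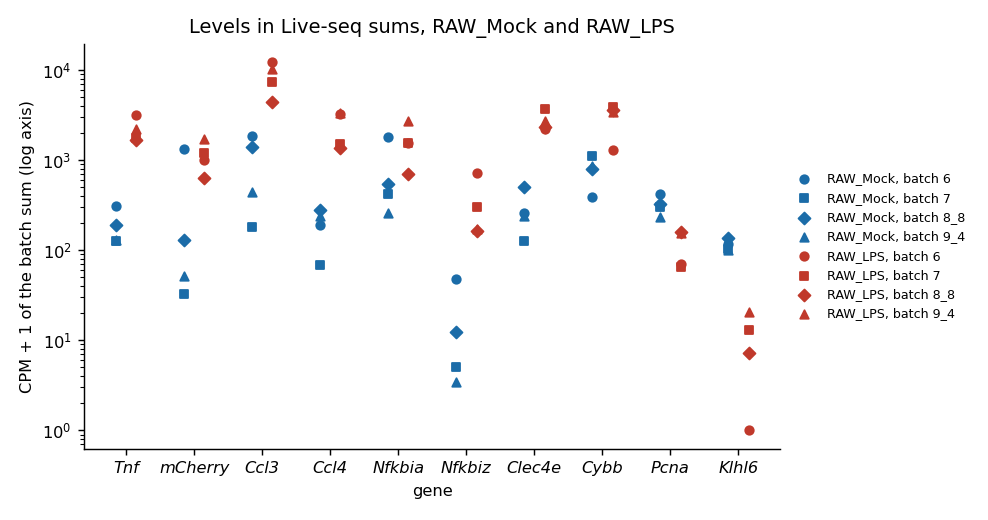
Level in the sum of a batch (y axis, CPM + 1, log axis) of 10 genes in mock (blue) and LPS biopsies (red), with 1 point a batch and its shape naming the batch. Tnf lay between 126.7 and 307.6 CPM in mock biopsies and between 1670 and 3130 CPM after LPS, with no overlap.

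Resting biopsies held a basal level of LPS response genes. Tnf, the cytokine, was at 307.6, 126.7, 190 and 128.2 CPM and was counted in 62 cells (60.2%, exact 95% interval 50.1% to 69.7%), against 0 of 44 IBA biopsies. Ccl3, a chemokine for leukocytes, was at 1850, 179.2, 1410 and 440 CPM in 65 cells, and Ccl4, its close relative, at 187.4, 67.1, 276.8 and 235.2 CPM in 45. Nfkbia, the inhibitor that holds NF-kB in the cytoplasm, was at 1820, 418.2, 538.1 and 254.2 CPM in 78 cells. Sod2, the mitochondrial superoxide dismutase, was at 1960, 236.1, 401.1 and 230 CPM. Batch 6 was again the highest for Tnf, Ccl3, Nfkbia and Sod2, and its NF-kB target list summed to 0.864% of counts against 0.181%, 0.401% and 0.183%. Interferon genes were scarce, at 0.0158% to 0.0197% of counts for 20 genes. Immediate early genes took 0.0592% to 0.107%, of which Junb was at 285.9, 137.3, 375.03 and 329.2 CPM.

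LPS biopsies set the scale for these levels. In the same fit as above edgeR called 0 of 11160 genes between LPS and mock biopsies (0.0%), with 4.47% at an unadjusted p below 0.05 and none under an adjusted p of 0.318, and DESeq2 called 3.75%. Sums of the 2 groups did not overlap for 1.14% of genes that were higher after LPS and 2.28% that were lower. Of 29 NF-kB targets tested, 29 had a higher mean after LPS, with a median log2 difference of 3.53, and 11 did not overlap. A target could enter the test through the LPS biopsies alone. Over all genes the median was -0.40. Tnf went from the values above to 3130, 1770, 1670 and 2230 CPM, a log2 difference of 3.62 (SE 0.47, adjusted p = 0.318, edgeR). Clec4e, the receptor Mincle, was at 259.01, 125.96, 505.5 and 238.98 CPM in mock and 2200, 3690, 2300 and 2730 CPM in LPS biopsies (3.47, SE 0.66). Nfkbiz, an atypical inhibitor protein of NF-kB, was at 47.3, 3.99, 11.5 and 2.46 CPM against 710, 297.7, 160.8 and 168.6 CPM (5.00, SE 0.83). Cybb was at 1280, 3900, 3600 and 3400 CPM after LPS (1.96, SE 0.43). Nfkbia was at 1550, 1560, 701.8 and 2710 CPM after LPS and overlapped the mock biopsies, of which those of batch 6 held 1820 CPM. Klhl6, a marker of the resting biopsies above, was at 0, 11.9, 6.29 and 19.7 CPM after LPS (-4.08, SE 1.79), in 10.3% of LPS biopsies against 32% of mock biopsies. Pcna, the sliding clamp of DNA replication, was at 422.7, 302.9, 321.98 and 230 CPM in mock and 68.8, 63.9, 158.7 and 152.2 CPM in LPS biopsies (-1.60, SE 0.59). Of 42 S phase genes 37 had a lower mean after LPS, with a median of -0.93, and of 52 G2M genes 48, with a median of -0.86, both against -0.40 over all genes. None of these differences was called by the main test.

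The windows before Tnf and Nfkbia are shown as a pair of NF-kB genes already counted in most resting biopsies. The letters GGGANNNNCC, a core of the sites that NF-kB binds, were found on either strand in 11 of 23 windows of the NF-kB target list (47.8%), in 26.4% of those of genes tested and in 20.7% of all windows. Capitals mark the match, which starts 29 bases after the start site in Tnf (chr17:35201958-35202257, minus strand) and at positions -212 and -29 from it in Nfkbia (chr12:55492598-55492897, minus strand).
Tnf: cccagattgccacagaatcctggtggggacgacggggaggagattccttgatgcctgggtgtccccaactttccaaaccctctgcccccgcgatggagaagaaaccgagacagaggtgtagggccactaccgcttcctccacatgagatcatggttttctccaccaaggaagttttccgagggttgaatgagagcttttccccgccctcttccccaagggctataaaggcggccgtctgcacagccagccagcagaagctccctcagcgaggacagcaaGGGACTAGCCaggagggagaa
Nfkbia: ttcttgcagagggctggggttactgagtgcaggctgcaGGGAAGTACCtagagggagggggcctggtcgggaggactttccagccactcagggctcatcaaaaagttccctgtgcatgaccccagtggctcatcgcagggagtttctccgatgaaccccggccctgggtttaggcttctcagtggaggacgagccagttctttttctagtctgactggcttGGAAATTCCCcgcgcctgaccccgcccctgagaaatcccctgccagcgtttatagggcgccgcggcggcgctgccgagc
The window of Ccl3 did not hold these letters.

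**Figure D4:**
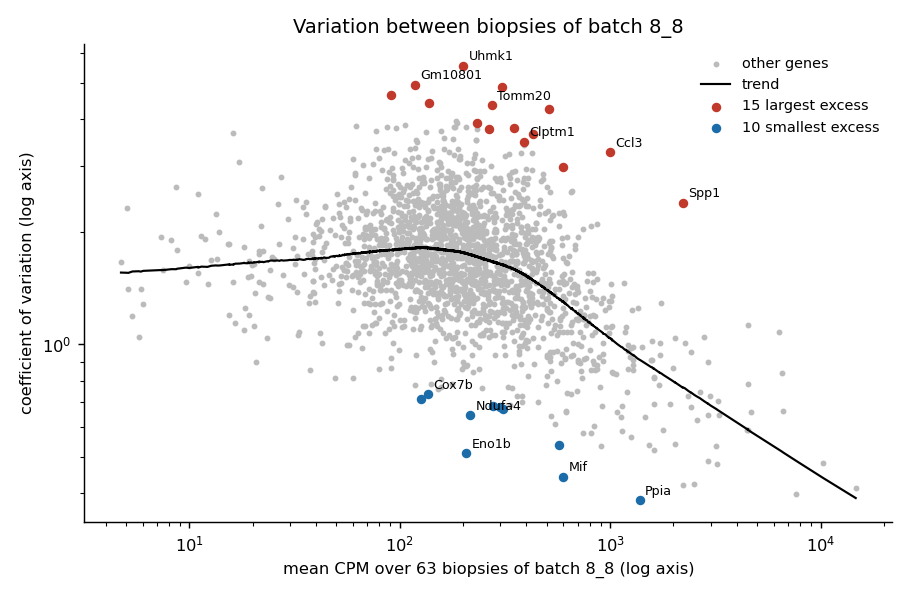
Coefficient of variation (SD over mean of CPM, y axis, log axis) against mean CPM (x axis, log axis) for 1969 protein-coding genes in 63 mock biopsies of batch 8_8, with the trend as a line. Red marks the 15 genes with the largest excess and blue the 10 with the smallest. Ccl3 lay 3.15-fold and Spp1 3.12-fold above the trend, and Mif at 0.341 and Ppia at 0.421 of it.

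Variation between cells was described in batch 8_8, whose 63 cells share a batch, and carries no p-value because cells are not replicates. Among 1969 protein-coding genes counted in at least 50% of these cells, the coefficient of variation (CV, SD over mean of CPM) had a median of 1.67. In 16 whole cells of the same batch it was 0.989, over 7073 genes. These include the 1969 and many more, so that the medians do not cover the same genes. The excess of a gene is its squared CV over that of a trend fitted in the mean. Ccl3 combined a high mean with a large excess: it was counted in 35 of 63 cells, its median was 27.5 CPM, and the 3 highest cells had 18400, 15600 and 8390 CPM. Its CV was 3.27, and 3.36 without the highest cell. Spp1, the secreted phosphoprotein osteopontin, was counted in 43 cells with a median of 400 CPM and its 3 highest cells at 28800, 23100 and 16900 CPM (CV 2.39, and 2.29 without the highest). In whole cells of the batch the CV of Ccl3 was 0.95 and that of Spp1 0.648. The top cell of each had 5179 and 4917 genes, more than the median of 3398, so that neither was a shallow library. On a log10 scale the excess of Ccl3 was 1.0 in batch 8_8, but 0.11 in batch 7, -0.1 in batch 6 and 0.49 in batch 9_4. That of Spp1 was 0.99 in batch 8_8, 0.07 in batch 7 and 0.74 in batch 9_4. In whole cells of batch 8_8 the excess was 0.1 for Ccl3 and 0.07 for Spp1.

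Most other genes at the top of the ranking had their highest value in a cell with few genes. Uhmk1, a kinase, had the largest CV (5.56), but 1 cell held 70% of its summed CPM, at 8840 CPM against 866.4 CPM in the next, and without it the CV was 2.21. Tomm20, a receptor of the mitochondrial import machinery, fell from a CV of 4.36 to 1.07 without the cell that held 55.3% of its sum. Tpp2, Ehd4 and Etf1 had their highest values in the same cell, the one with the fewest genes of the batch. Max, Grb2, Clptm1 and Uhmk1 shared another top cell, with 1303 genes. Alcam, Ap3d1 and Elmo1 were led by cells with at most 1128 genes. Gm10800 and Gm10801 were led by 1 cell with 5680 genes. After each gene's own highest cell was left out, 6 of the 15 genes stayed among the top 15, namely Ccl3, Spp1, Gm10801, Gm10800, Clptm1 and Grb2. Tpp2 then ranked 26, and 8 of the 15 lay further down, of which Tomm20 fell the furthest, to 1840 of 1969 genes, and the other 7 stayed in the upper 50%. Without cells under 1000 genes the log10 excess fell from 0.97 to 0.38 for Tpp2. It was then -0.07 for Ehd4, 0.09 for Etf1 and -0.44 for Tomm20. Of the 15 genes, 5 could be measured in batch 7 and 12 in batch 9_4, and 4 and 10 of these lay above the trend. Over shared genes the excess had a rho of 0.3 with batch 7 and 0.407 with batch 9_4.

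The 10 genes with the smallest excess were Mif, Ppia, Oaz1, Eno1b, Ndufa4, Cox7b, Uqcrh, Atp5g3, Erh and Banf1. Mif, a small cytokine made by resting cells, was counted in all 63 biopsies, from 71 to 1460 CPM around 577.4 CPM (CV 0.443), and Ppia, the prolyl isomerase cyclophilin A, from 275.4 to 3390 CPM around 1420 CPM (CV 0.383). Their CVs in whole cells were 0.232 and 0.139. Oaz1, which controls polyamine synthesis, had a CV of 0.538, and Eno1b, a gene that shares its sequence with the enolase Eno1, one of 0.512. Ndufa4, Cox7b, Uqcrh and Atp5g3 belong to respiratory complexes and ATP synthase, with CVs of 0.646 to 0.736. Erh and Banf1, small nuclear proteins, had 0.717 and 0.681. In batch 7 9 of these 10 genes and in batch 9_4 10 of 10 were below the trend of that batch, and in whole cells 10 of 10. By list, 1 of 22 respiratory chain genes and 1 of 15 translation genes lay above the trend, against 50.4% of all 1969 genes. Of the mitochondrial mRNAs 6 of 7 and of G2M genes 16 of 21 lay above it. Exon length went with the excess: of 4 equal classes by excess the lowest had a median of 2750 bases and the highest one of 4458 bases, and in whole cells these were 3312 and 5485.5 bases. The part of length in these lists was not tested.

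**Figure D5:**
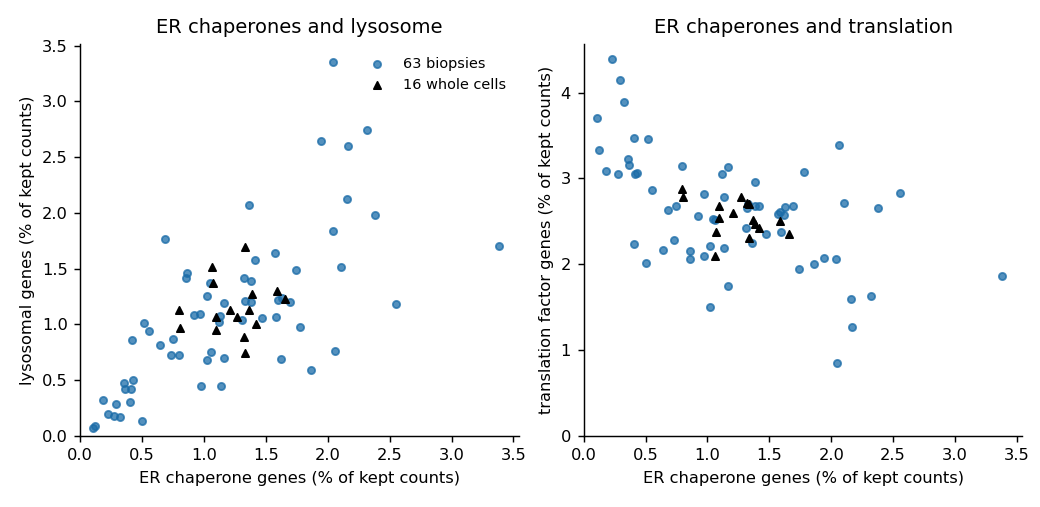
Share of a cell's kept counts taken by ER chaperone genes (x axis, percent) against that of lysosomal genes (left, y axis, percent) and translation factor genes (right) in 63 mock biopsies (circles) and 16 whole cells (triangles) of batch 8_8. Across the biopsies Spearman's rho was 0.73 on the left and -0.51 on the right, while the whole cells kept to the middle of the range.

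Whole groups of genes took very different shares from biopsy to biopsy. The 14 ER chaperone genes took 0.103% to 3.38% of the counts of a cell in batch 8_8, with a median of 1.13% and a CV of 0.594, against 0.195 among whole cells of the batch. The 20 lysosomal genes took 0.0721% to 3.35% with a median of 1.06% (CV 0.632 against 0.208). Mitochondrial mRNAs took 0.0331% to 11% with a median of 2.20% (CV 0.769 against 0.188). Translation genes varied less, from 0.849% to 4.39% (CV 0.252 against 0.0814). S phase genes had a CV of 0.476 against 0.351 and G2M genes 0.558 against 0.404, the closest of these lists to the whole cells. The NF-kB targets ran from 0.000963% to 3.75% around 0.168% (CV 1.74 against 0.329).

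The lists moved with each other across the 63 cells. Shares of ER chaperone and lysosomal genes had a Spearman rho of 0.73, of 0.76 at equal depth, and of 0.43 among the 32 cells with at least the median number of genes. In other batches it was 0.41 (batch 7, 20 cells) and 0.01 (batch 9_4, 12 cells), and among 16 whole cells 0.13. Lysosomal and macrophage shares, which have 1 gene in common, had 0.57, with 0.32 in batch 7, 0.07 in batch 9_4 and 0.44 in whole cells. ER chaperone and macrophage shares had 0.52, with 0.62 in batch 7 and 0.30 in batch 9_4, but -0.55 in whole cells. On the other side, lysosomal shares went against those of translation genes (-0.60) and of cytoskeletal genes (-0.49), as did ER chaperones (-0.51 and -0.50). The ER chaperone values did not recur in other batches: against translation they were 0.31 in batch 7 and -0.01 in batch 9_4, and against the cytoskeleton 0.09 and -0.08. Among the 32 deeper cells ER chaperones had -0.20 with translation. The lysosome and translation relation was -0.72 in whole cells but 0.25 in batch 7 and 0.47 in batch 9_4, and lysosome against cytoskeleton was negative in batches 7 and 9_4 too, at -0.46 and -0.39. ER chaperone and lysosomal shares were larger in cells with more genes (rho 0.36 and 0.41) and translation and cytoskeletal shares smaller (-0.36 and -0.31). Shares of 1 total are not free of each other, and the part of depth was not tested.

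Within lists the pattern was similar. Over all pairs of genes counted in at least 50% of the 63 cells the median rho was 0.143, with the 1st percentile at -0.231 and the 99th at 0.472. Mitochondrial mRNAs had a median of 0.564 over the pairs of 7 genes, and 0.585 in batch 7. Lysosomal genes had 0.328 over the pairs of 17 genes (0.369 in batch 7) and ER chaperones 0.318 over those of 13 (0.303). Translation genes (0.077) and cytoskeletal genes (0.077) lay under the median of all pairs. Among single pairs, mt-Nd1 and mt-Cytb had 0.74, with 0.78 in batch 7 and 0.33 in batch 9_4. Hspa5 and its partner chaperone Calr had 0.56, but 0.15 and -0.20 in batches 7 and 9_4. Ctsb and Ctsd had 0.49, then 0.29 and -0.19, and Top2a and Mki67, of dividing cells, 0.56, then 0.02 and 0.13. Fth1 and Ftl1, the chains of ferritin, had 0.53, with 0.46 in batch 7 and 0.29 in batch 9_4. Lyz2 and Csf1r had 0.18, with 0.44 in batch 7 and 0.09 in batch 9_4.

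Tnf and Nfkbia were followed across cells as response genes. In batch 8_8 Tnf was counted in 39 of 63 cells, with a median of 16.6 CPM and a highest value of 1830 CPM, and Nfkbia in 49, with a median of 280 and a highest value of 4690 CPM. The pair had a rho of 0.34 (0.25 at equal depth), with 0.59 in batch 7 and 0.19 in batch 9_4. Among genes counted in at least 50% of the 63 cells, which leaves out mCherry, the 10 most like Tnf were Tmem160 (0.52), Arhgef7 (0.51), Nol7 (0.50), Clec4e (0.50), Wdr26 (0.49), Ssr4 (0.48), Psmb5 (0.48), Rela (0.46), Uqcc2 (0.46) and Retreg1 (0.46). At equal depth the rho of these 10 ran from 0.26 (Psmb5) to 0.51 (Arhgef7), with Tmem160 at 0.30 and Rela at 0.34. Only Ssr4, at 0.42 and 0.08, Rela, at 0.29 and 0.09, Uqcc2, at 0.36 and 0.01, and Wdr26, at 0.16 and 0.07, had a positive rho in batches 7 and 9_4 alike. The 10 most like Nfkbia were Elavl1 (0.48), Sf3b3 (0.48), Ccl3 (0.45), Clec5a (0.45), Srsf3 (0.44), Atad2 (0.44), Hmga1b (0.44), Ubb (0.44), Slc25a5 (0.42) and Fam111a (0.42). At equal depth they ran from 0.33 (Hmga1b) to 0.51 (Sf3b3). Sf3b3, a splicing factor, had 0.45 in batch 7 and 0.46 in batch 9_4, where Atad2 (0.52) and Srsf3 (0.51) were higher but stood at -0.03 and -0.02 in batch 7. The partners' values in batch 8_8 without thinning lie close to the 99th percentile of all pairs, 0.472, from which they were picked as the highest. Ccl3 and Ccl4 had 0.47 in batch 8_8, 0.55 in batch 7 and 0.64 in batch 9_4.

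The transgenes gave a check of transcripts that share a source. EGFP and Rela, which the fusion joins in 1 mRNA, had a rho of 0.71 in batch 8_8, 0.64 in batch 7 and 0.87 in batch 9_4. Of the mock biopsies, 44 had both, 13 had Rela alone, 0 had EGFP alone and 46 had neither. Among whole cells 93.6% had both. Reporter counts were not confined to RAW cells, since EGFP and mCherry together took 0.046% of the counts of ASPC_Pre in batch 9_4. mCherry is driven by the Tnf promoter as a separate transcript. It was at 1330, 31.6, 127.5 and 50.6 CPM, with batch 6 far above the others, and was counted in 28 cells (27.2%, exact 95% interval 18.9% to 36.8%) against 2 of 44 IBA biopsies. Tnf and mCherry were found together in 27 cells, Tnf alone in 35, mCherry alone in 1 and neither in 40. Their rho was 0.54 in batch 8_8 (0.39 at equal depth), 0.37 in batch 7 and 0.28 in batch 9_4. In whole cells 66.9% had both and 29.3% had Tnf alone.

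The 5 cells with a second biopsy came from batches 7 and 9_4. They had 1069 to 4788 genes, and Tnf was counted in 1 of their mock biopsies, at 53.6 CPM. Nfkbia was counted in 2, at 578.1 and 715.1 CPM, and mCherry in 0. Csf1r was counted in 4 of the 5, at 263.7 to 3790 CPM, and the cell without it, which had 1069 genes, also had no Lyz2. Pairwise correlations over all mock biopsies had a median of 0.383 and a highest value of 0.851, so that no cell appeared to be deposited more than once.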

How the data were processed

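Per the labels and the methods of the study, the authors demultiplexed reads with bcl2fastq 2.19.1, aligned read 1 with STAR 2.6.1c to mm10 (GRCm38) and obtained unstranded HTSeq counts of uniquely mapping reads for Ensembl genes, EGFP and mCherry. The deposited table holds raw read counts for 1012 cells and 30452 features, without normalization and without molecular identifiers. The study had filtered cells on mapping rate, mitochondrial share and number of genes and had merged lanes. Its limit was 1000 genes, yet in this table mock biopsies of batch 8_8 went down to 844 genes, and these were kept. Biopsies had more PCR cycles than whole cells. Without strand, overlapping and antisense genes cannot be told apart.

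The labels gave 103 mock biopsies, and members and gene lists were chosen with earlier results of these data known. Whole mock cells numbered 157. Genes seen in negative controls (20) and of ribosomal proteins (91) were dropped. Counts were summed by batch and state where 3 or more cells were present (14 Live-seq sums, and 7 sums of biopsies and whole cells). A gene was tested if 15% of the cells of a group had 2 or more counts and it passed filterByExpr (minimum count 2). edgeR 4.0.16 in R 4.3.3 (TMM, legacy quasi-likelihood fit, batch as a term in the Live-seq fit, Benjamini-Hochberg adjustment) gave dispersions of 1.41 and 1.09. It called 181 genes higher and 222 lower between RAW_Mock and the mesenchymal biopsies. Fitted fold changes used a prior count of 0.125. DESeq2 1.42.0 was an alternative. Batch pairs the groups, since the labels give a shared batch: deviations of mock and LPS sums had correlations of 0.215, 0.0731, 0.0316 and 0.109 in batches 6, 7, 8_8 and 9_4. In simulated data with 1 dispersion for all genes, edgeR recovered 7% of genes changed 64-fold between RAW_Mock and the mesenchymal sums. Total counts ran from 64500 to 1116946 per biopsy. For equal depth cells were thinned to 50000 kept counts, which left out 2 mock biopsies. Variation used the squared CV of CPM against a lowess trend with a fraction of 0.5, fitted with statsmodels 0.14.6. Exact permutation tests used SciPy 1.17.1. Exon length and position came from GENCODE vM21.

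Named genes were members of 26 lists, the 10 called rises and falls of largest size without overlap, the 15 largest and 10 smallest excesses, the 20 highest means, and the 10 genes with the highest rho with Tnf and with Nfkbia. Plaur, Nr4a1, Gm10800 and the single pairs of genes given a rho were picked from their values. Tomm20, Eno1b, Gm10800 and Gm10801 have close copies in the genome, which can share reads.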

Additional observations from a re-analysis of the deposited data

Results flagged for a closer look

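Over the 4 batches of mock biopsies, 58 measures were looked at for a batch far from the other 3, and 8 were found, where chance gives about 1 in 20. Of these, 7 lay in batch 6, which held 8 cells. Its mitochondrial share was the lowest by the median cell, at 0.397% of kept counts, while its cells ran up to 36.2% and its summed mitochondrial mRNAs took 2.63%, the highest of the 4 batches. Its reporter share was the highest, with mCherry and EGFP summing to 0.187% of counts, and its heat shock genes took the highest share, 1.32%. Its S phase genes took the lowest share, 0.387%. The T and NK cell list was highest there but close to 0, at 0.00064%. Laptm5 was lowest in batch 6, at 409.3 CPM, and Gsn highest, at 1280 CPM. Outside batch 6, the interferon genes were lowest in batch 9_4, at 0.0158% of counts.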

How the results depend on the processing

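Calls depended on the fit more than the direction of named genes did. Against 3.61% of tested genes called between RAW_Mock and the mesenchymal biopsies, the edgeR 4 fit called 11.8%, DESeq2 15% (which held all of the genes called first), thinned cells 6.85% and the fit with no replicate block, that is without the pairing by batch, 8.40%, while leaving out each batch in turn gave 0.108% to 4.93%. Scaling by library size alone moved the median of all genes from -0.07 to 0.22 on the log2 scale and the calls to 1.98% higher and 1.85% lower. For LPS against mock, the edgeR 4 fit called 0.00896% (1 gene), DESeq2 3.75% and thinned cells 0.0635% (7 genes), against 0. For biopsies against whole cells each alternative called 0, and a replicate block was not run, since only batch 8_8 holds both. Of the alternatives for named genes in the first comparison 87.2% gave the same call and 45 a weaker one, and Emilin2 reversed to -0.19 without batch 8_8 (range -0.19 to 0.88 over the batches left out). In LPS against mock 86 of 96 gave the same call and 10 a stronger one, and in biopsies against whole cells 52 of 52 gave the same. Leaving out batch 8_8 turned genes per cell against LPS biopsies from 106.1 to -372.8 (range -372.8 to 356.5) and the top-100 share from -1.83 to 2.33 percentage points (range -5.46 to 2.33), and leaving out batch 6 turned the ribosomal protein share against whole cells from 0.719 to -0.0654 (range -0.0654 to 1.48). The causes were not tested. The median CV of 1.67 was 2.36 when genes counted in 25% of the cells entered, 1.13 in batch 9_4 and 0.989 in whole cells. Each of these medians is over its own set of genes. The median correlation of 0.143 was 0.055 in batch 7. The LPS fits with the dropped genes kept, without shallow cells and with library size alone, and the values without each gene's highest cell and among deeper cells were added after the data had been seen. At an equal depth of 50000 counts, genes at 100 to 300 CPM were counted in 46.8% of biopsies and 93.8% of whole cells.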
